A study of Mus musculus with 12 samples.

Results

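The genes described here are 10 genes of milk secretion, chosen by symbol from a list and read from the table of read counts and the table of FPKM (the count of a gene scaled by its length and by the total count of the tumor). They are the caseins Csn1s1, Csn1s2a, Csn1s2b, Csn2 and Csn3, the whey proteins Wap and Lalba, the mucin-like Glycam1, and Btn1a1 and Xdh of the milk fat globule. All 10 were found, among 54532 genes. RNA-seq was run on 12 mammary tumors of female MMTV-Neu mice. In this model of HER2-positive breast cancer, the transgene joins a viral promoter (MMTV) to unmutated Neu (Erbb2). Every mouse carried this transgene. Feeding began once a tumor measured 4 mm and lasted 10 days, with a control diet (4 tumors), MSU-42011 at 100 mg/kg diet (4 tumors) or bexarotene at 100 mg/kg diet (4 tumors). MSU-42011 and bexarotene both activate the retinoid X receptor (RXR), the partner of many other nuclear receptors. Age and whether the mice had been pregnant are not given in the sources used here. Each diet was fed to 4 mice and gave 4 tumors, each with a tag of its own in the labels, and p-values measure the spread between these tumors.

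Caseins are the main proteins of milk and form micelles that carry calcium and phosphate, while the whey proteins stay in solution. In the mammary gland, milk protein genes are switched on in alveolar cells during pregnancy and lactation, when prolactin acts through JAK2 and the transcription factor STAT5 together with glucocorticoids and Elf5. The genes of the milk fat globule serve the last step of secretion, in which lipid droplets leave the cell wrapped in membrane.

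The tumors had total counts of 16583413 to 25925027 (median 19342536). Bexarotene replicate 1 stood apart from the other tumors. Its log2 values correlated with those of the rest at a median of 0.915, a figure that was 0.961 or more for the other 11, and its summed level of 5 fibroblast markers was 7203 normalized CPM (counts scaled to a common library size), against 47.9 to 533 in the other 11 tumors. Its summed level of 8 luminal epithelial markers was 3064 normalized CPM, below the 4603 to 6362 of the others. The epithelial label held in all tumors for Epcam, Krt8 and Krt18, with Epcam between 1353 and 2533 normalized CPM, while Krt19 of the same list had a mean of 0.89 ± 0.76 normalized CPM in control tumors (SD, n = 4). In RNA from whole tumor pieces, fewer cells of a type and less RNA per cell cannot be told apart.

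The 5 casein genes lie on chromosome 5 within 266.5 kb (chr5:87666208-87932665, GRCm38 coordinates), in a stretch that holds 8 other annotated genes. Of these 8, Odam had 1084 counts summed over the 12 tumors and each of the rest had 33 or fewer, beside 21565 for Csn1s2b, the lowest casein, and 5087654 for Csn3. Casein reads therefore lay next to genes with almost no reads. Wap is on chromosome 11, Lalba and Glycam1 on chromosome 15, Btn1a1 on chromosome 13 and Xdh on chromosome 17. A gene antisense to Csn3 and a pseudogene inside Xdh overlap these 2 members, with 6 and 115 counts over all tumors.

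STAT5 binds palindromes of the form TTCNNNGAA, so the promoters were searched for these letters. RefSeq windows of 300 bases (250 before the transcription start and 50 after it, GRCm38.p6) were at hand for Csn1s1, Csn1s2a, Csn2, Wap, Lalba and Glycam1, which is 6 of the 10 genes. The motif, which reads the same on both strands, was present in 4 of the 6 windows, against 8.3% of 32851 windows of this length. It was found in Csn1s1, Csn2, Glycam1 and Csn1s2a, and its letters are absent from the Wap and Lalba windows. The sites are shown with 10 bases on each side, 5′ to 3′ on the strand of the gene, with the motif in capitals, because they carry the letters that these genes share.

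Csn1s1, chr5:87666098-87666126, plus strand: tttgtaacaaTTCTTAGAAtttatgtaaa

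Csn2, chr5:87699500-87699528, minus strand: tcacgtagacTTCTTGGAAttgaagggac

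Csn1s2a, chr5:87774460-87774488, plus strand: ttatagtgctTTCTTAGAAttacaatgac

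Glycam1, chr15:103565208-103565236, minus strand: gccaactcatTTCCCAGAAacaccaattc

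The motif began 100 bases before the RefSeq start in Csn1s1, 93 before it in Csn2 and 145 before it in Glycam1, and 21 bases after it in Csn1s2a. For Csn2, Csn1s2a, Wap and Lalba the gene starts in the deposited table are not those of RefSeq, and for Csn1s1 and Glycam1 they are. By the deposited starts, the Csn1s2a motif (chr5:87774470-87774478) lies before the gene, which starts at 87774567. The Csn2 motif (chr5:87699510-87699518, minus strand) then lies inside the gene, which starts at 87699630. Other letters searched on both strands were TATAAA, which none of the 6 windows held (13.6% of all windows), TTGGCA, the half-site of nuclear factor I, held by Lalba and Glycam1 (14.1%), and AGGTCA, the half-site of RXR partners, held by Glycam1 alone (16.3%). None of these matches overlapped another. A wider view of a promoter with the motif and of one without it is given by the 160 bases before the RefSeq start of Csn1s1 and of Wap.

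Csn1s1, chr5:87666048-87666207, plus strand: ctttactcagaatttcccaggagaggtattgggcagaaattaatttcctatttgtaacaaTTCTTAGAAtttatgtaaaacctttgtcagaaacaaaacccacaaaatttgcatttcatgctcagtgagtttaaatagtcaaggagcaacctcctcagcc

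Wap, chr11:6638650-6638809, minus strand: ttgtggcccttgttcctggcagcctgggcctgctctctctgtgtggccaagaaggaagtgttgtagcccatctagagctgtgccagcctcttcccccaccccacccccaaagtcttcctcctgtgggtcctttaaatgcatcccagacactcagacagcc

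A match is a description of letters and not a site shown to be bound. The genes with the motif ran from Csn1s1, among the most abundant mRNAs, down to Glycam1 at a few counts, and Wap and Lalba, both without it, were also far apart in level.

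Milk protein mRNA was abundant in every tumor of every diet group. The 10 genes together took 5.55%, 7.34%, 4.29% and 4.75% of counted reads in the 4 control tumors. In the MSU-42011 tumors they took 4.79%, 4.90%, 3.20% and 5.62%, and in the bexarotene tumors 2.87%, 5.51%, 3.23% and 6.04%. Wilson 95% intervals were at most 0.0112 percentage points to each side and cover counting error only. The ranges of the 3 groups overlapped, with the highest share in a control tumor and the lowest in bexarotene replicate 1.

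Among the 10 genes the levels per length spanned more than 4 orders of magnitude. Mean FPKM over the 12 tumors was 17643.7 ± 7338 (SD, n = 12) for Csn1s1, the alpha-S1 casein, and 17152 ± 3670 for Csn3, the kappa-casein that caps the micelle. By FPKM these 2 neighbours did not differ beyond their spread, since Csn1s1 was the higher in 7 of 12 tumors. The order of the genes and the shares of the caseins rest on the lengths behind FPKM. These were 814 bases for Csn1s1, 1233 for Csn3 and 771 for Lalba, where the deposited gene lengths are 6247, 4152 and 771. Other lengths would change the levels of genes relative to each other. Csn3 ranked between 1 and 3 among all 54532 genes in every tumor. Csn1s2a, an alpha-S2-like casein, followed at 8389 ± 4111 FPKM and was below Csn3 in 12 of 12 tumors.

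Lalba, the alpha-lactalbumin that turns galactosyltransferase into lactose synthase, had 3199 ± 1414 FPKM. Csn2, the beta-casein, had 1891 ± 1721 FPKM and was below Lalba in 10 of 12 tumors, with overlapping ranges. Xdh, xanthine oxidoreductase, which the cell also uses to release lipid droplets, had 435 ± 100.2 FPKM. Btn1a1, the butyrophilin that binds Xdh at the apical membrane, had 241 ± 104.0 FPKM and was below Xdh in 11 of 12 tumors.

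The low end held the other 3 genes. Csn1s2b had 73.6 ± 73.6 FPKM. Wap, the whey acidic protein, had 14.6 ± 17.1 FPKM and was below Csn1s2b in 11 of 12 tumors. Glycam1 had 1.34 ± 3.26 FPKM and was below Wap in 12 of 12 tumors. Wap, abundant in the lactating mouse gland, was thus a minor mRNA in these tumors.

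**Figure D1:**
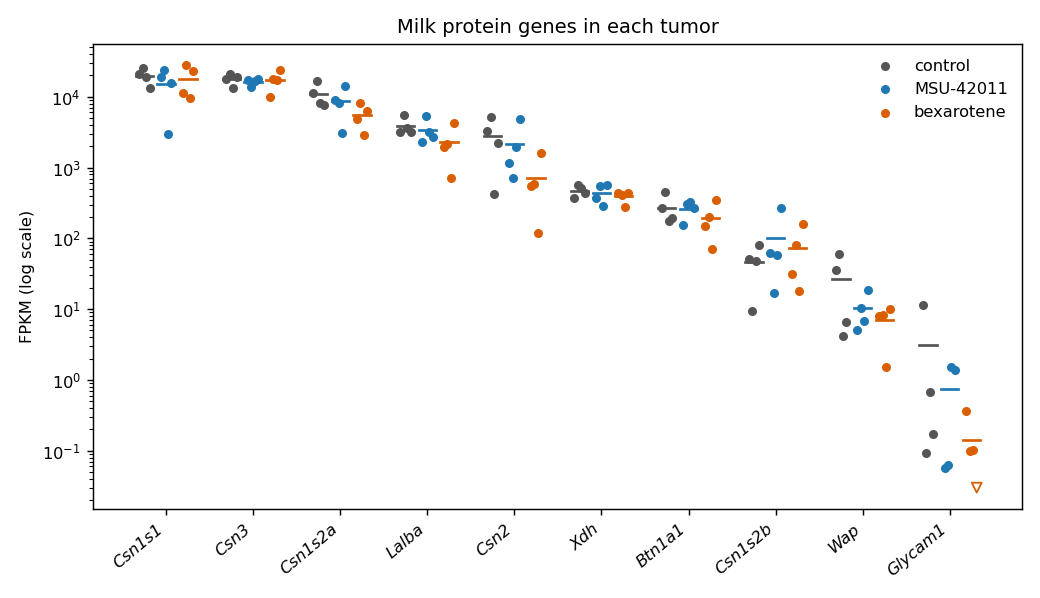
FPKM of the 10 genes in each tumor, on a log scale, with genes ordered by their mean over 12 tumors. Points are single tumors, colored by diet, bars are group means (n = 4), and the open triangle marks the Glycam1 value of 0 in bexarotene replicate 4, placed at the foot of the axis. Csn1s1 and Csn3 lead at means of 17643.7 and 17152 FPKM, and the 3 groups overlap for every gene.

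The comparisons of diets rest on the quasi-likelihood F test of edgeR, run on the counts of the 15504 genes that passed its filter on low counts, with Benjamini-Hochberg adjustment. All 10 genes passed this filter. Each gene was also compared by permuting the diet labels of its log2 values, an exact two-sided test whose smallest possible p is 0.0286. Levels for these comparisons are in normalized CPM, with library sizes scaled by the TMM method.

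None of the 10 genes changed in MSU-42011 tumors against control at an adjusted p under 0.05, where the share over all genes was 0%. At an unadjusted p under 0.05 the count was also 0 of 10, against 1.99% of all genes, and DESeq2 gave 1 of 10 at that level (Wap, lower) and none after adjustment. By edgeR, Wap was also lower at that level without control replicate 3 or without control replicate 4. The estimated log2 fold change was below 0 for 9 of the 10 genes, against 49.7% of all genes tested, with a median of -0.33 for the 10 and 0.0016 for all genes. Single tumors set some of these signs. Without control replicate 2, Csn2 turned to 0.066 and Btn1a1 to 0.25. Glycam1 turned to 1.26 without control replicate 1, and Xdh to 0.0023 without MSU-42011 replicate 3. No gene had groups that did not overlap (1.97% of all genes did).

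In bexarotene tumors against control, again none of the 10 genes changed at an adjusted p under 0.05 (0% of all genes). At an unadjusted p under 0.05, 4 of 10 were lower and none higher by edgeR, where 1.96% of all genes were lower and 4.48% higher. They were Csn1s2a, Csn2, Wap and Glycam1, and DESeq2 gave the same 4 at that level and none after adjustment. The estimate was below 0 for 9 of 10 genes, against 44.7% of all genes, with medians of -0.66 for the 10 and 0.030 for all genes. The groups overlapped for every one of the 10 (2.03% of all genes had groups that did not). These 4 depended on single tumors: without control replicate 1 the count was 0, without control replicate 2 or without bexarotene replicate 3 it was 1 (Glycam1), without bexarotene replicate 1 or replicate 2 it was 2, and without bexarotene replicate 4 it was 5. Both comparisons use the same 4 control tumors.

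Between the 2 agonists at the same dose and time, none of the 10 genes differed at an adjusted p under 0.05 (0% of all genes) or at an unadjusted p under 0.05 (3.95% of all genes), by edgeR or by DESeq2. In MSU-42011 against bexarotene 2 of 10 estimates were below 0, against 54.9% of all genes, and the groups overlapped for every one of the 10 (1.17% of all genes had groups that did not). The widths of the intervals set what could be seen. For Csn3 and Xdh the 95% intervals of the log2 difference ran from -0.76 to 0.52 and from -0.38 to 0.68. For Csn2 and Glycam1 they ran from -0.31 to 3.37 and from -1.10 to 5.66, so differences of several fold between the compounds remain possible for these genes. Leaving out 1 tumor changed this count too. Without bexarotene replicate 4 Csn2, Lalba and Btn1a1 were higher in MSU-42011 at an unadjusted p under 0.05, and without MSU-42011 replicate 3 Csn1s2a was. Over all 3 comparisons, 0 of 30 exact permutation tests gave a p under 0.05 before adjustment.

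**Figure D2:**
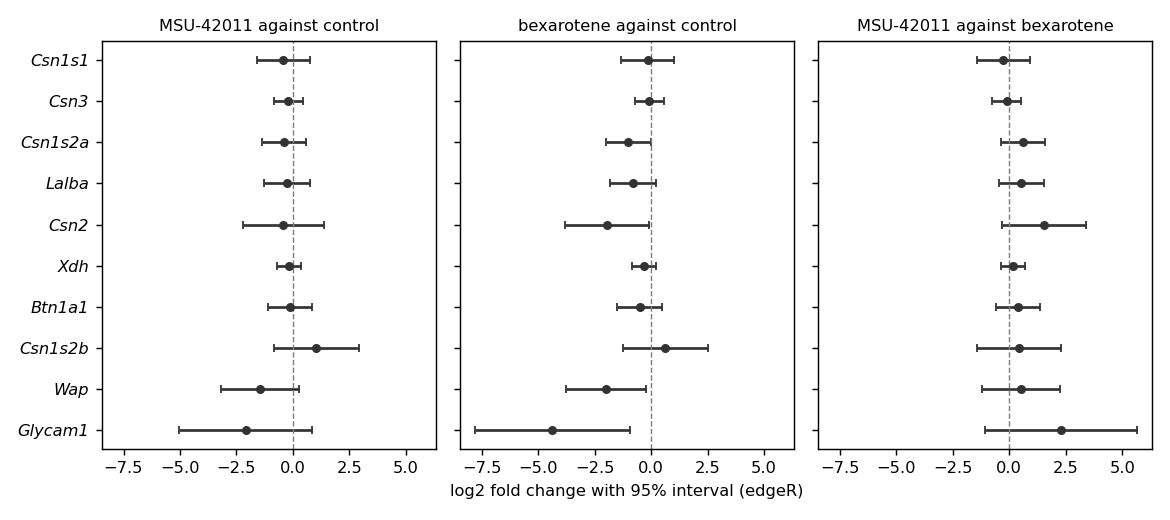
Log2 fold changes of the 10 genes with 95% intervals from edgeR in the 3 comparisons, with genes in order of level and the dashed line at 0. In bexarotene against control the intervals of Csn1s2a, Csn2, Wap and Glycam1 stay below 0 before any adjustment, and in the other 2 comparisons every interval includes 0.

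Among the caseins, Csn2 had the largest ratio of highest to lowest tumor. Its normalized CPM was 4689, 7428, 580 and 3171 in the control tumors, 1607, 981, 2564 and 6675 in the MSU-42011 tumors, and 729, 805, 162 and 2389 in the bexarotene tumors. Control replicate 3 was low for its group and lay below 3 of the 4 bexarotene tumors, and all 4 bexarotene tumors were below the control median. The log2 fold change in bexarotene against control was -1.96 (SE 0.858, 95% interval -3.82 to -0.093, p = 0.0411, edgeR adjusted p = 0.763), and the exact permutation p was 0.143. Without each tumor in turn it ranged from -2.82 to -1.47. In MSU-42011 against control it was -0.42 (95% interval -2.23 to 1.38, edgeR adjusted p = 1.00).

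Csn1s2a had 8874, 13560.2, 6337 and 6317 normalized CPM in the control tumors. In the MSU-42011 tumors it had 7024, 6455, 2295 and 10903. In the bexarotene tumors it had 3641, 6341, 2183 and 5259, so that 3 of 4 were below every control tumor and bexarotene replicate 2 lay at the level of the 2 lowest controls. The log2 fold change in bexarotene against control was -1.01 (SE 0.452, 95% interval -1.99 to -0.028, p = 0.0448, edgeR adjusted p = 0.770, exact permutation p = 0.0857).

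Csn1s1 had 17191, 22018, 15184 and 11459 normalized CPM in the control tumors and 8836, 22680.0, 7599 and 19915.5 in the bexarotene tumors. Among the MSU-42011 tumors it had 15075, 19304 and 12422 in replicates 1, 2 and 4, but 2330 in replicate 3, the lowest of the 12. Of the bexarotene tumors 2 lay below the control range and 1 above it. The log2 fold change was -0.42 (95% interval -1.59 to 0.75) in MSU-42011 and -0.16 (95% interval -1.33 to 1.01) in bexarotene against control. The former was -0.078 without MSU-42011 replicate 3, and the latter turned to 0.058 without bexarotene replicate 3.

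Csn3 was the steadiest casein. It had 22099, 27420 (replicate 2), 16387 and 24807 normalized CPM in the control tumors, 20789, 16790.5, 20061 and 21340 in the MSU-42011 tumors and 11769, 22135, 20439.6 and 31517 in the bexarotene tumors. The lowest and the highest of the 12 were both bexarotene tumors. The log2 fold change was -0.20 (95% interval -0.84 to 0.44) in MSU-42011 and -0.079 (95% interval -0.72 to 0.56) in bexarotene against control, and the sign of the latter turned to 0.12 without bexarotene replicate 1.

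Csn1s2b followed another pattern. It had 61.3, 11.8, 55.3 and 99.4 normalized CPM in the control tumors, 72.0, 19.9, 65.3 and 311.0 in the MSU-42011 tumors and 35.5, 94.5, 20.8 and 202 in the bexarotene tumors. It was lowest in control replicate 2, the tumor in which 6 of the other genes were at their highest. It was the one gene with estimates above 0 against control, 1.04 (95% interval -0.84 to 2.92) in MSU-42011 and 0.63 (95% interval -1.24 to 2.50) in bexarotene on the log2 scale. Each rested on replicate 4 of the treated group, without which the values were -0.12 and -0.19.

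The makeup of the casein mRNA differed between tumors of the same diet. Csn3 made up 29.4% to 45.0% of summed casein FPKM in 10 of the 12 tumors, but 67.8% in MSU-42011 replicate 3 and 57.5% in bexarotene replicate 3. In MSU-42011 replicate 3 the share of Csn1s1 was 11.9%, against 29.6% to 51.2% in the other tumors, while Csn2 kept 7.73%. In bexarotene replicate 3 it was Csn2 that had the smallest share of all tumors, 0.41%, and Csn1s2a at 9.70%. These 2 tumors had casein FPKM sums of 25008 and 29577, and together with bexarotene replicate 1, at 26787, the lowest of the 12. In bexarotene replicate 1 the makeup (37.2% Csn3, 42.4% Csn1s1, 18.2% Csn1s2a) lay within the range of the control tumors.

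**Figure D3:**
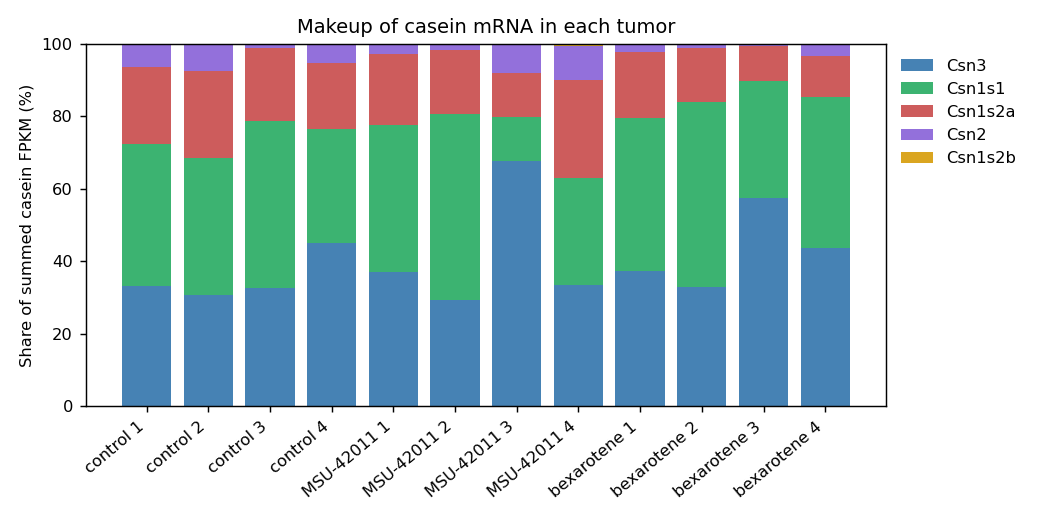
Share of each casein in the summed casein FPKM of each tumor, in percent, as stacked bars that add up to 100. Csn3 takes 67.8% in MSU-42011 replicate 3 and 57.5% in bexarotene replicate 3, against at most 45.0% in the other 10 tumors, and Csn1s2b is too small to be seen in most bars.

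Of the 8 treated tumors, 8 were below the control median for Wap and 6 for Lalba, the whey protein genes, without a difference that passed the adjusted test. Wap had 23.7, 42.0, 2.73 and 4.52 normalized CPM in the control tumors, 3.30, 6.79, 4.23 and 12.2 in the MSU-42011 tumors and 5.09, 5.48, 0.97 and 6.93 in the bexarotene tumors. The 2 high values were control replicates 1 and 2, and the other 2 controls lay within the range of the treated tumors. The log2 fold change was -1.98 in bexarotene (SE 0.814, 95% interval -3.75 to -0.21, p = 0.0310, edgeR adjusted p = 0.762, exact permutation p = 0.286) and -1.46 in MSU-42011 (95% interval -3.19 to 0.28, p = 0.0928, edgeR adjusted p = 1.00). Leaving out 1 tumor gave from -2.34 (without control replicate 3) to -1.16 (without control replicate 2) in bexarotene, and from -1.94 (without MSU-42011 replicate 4) to -0.64 (without control replicate 2) in MSU-42011.

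Lalba had 2541, 4530.4, 2797 and 2583 normalized CPM in the control tumors. In the MSU-42011 tumors it had 1751, 4176, 2364 and 2032, and in the bexarotene tumors 1448, 1634, 529 and 3526. In each treated group 3 of 4 tumors were below every control tumor and the fourth was above 3 of the 4 controls. The log2 fold change was -0.80 in bexarotene (95% interval -1.81 to 0.21, edgeR adjusted p = 0.852, exact permutation p = 0.114) and -0.27 in MSU-42011 (95% interval -1.28 to 0.74). Leaving out 1 tumor gave from -1.38 (without bexarotene replicate 4) to -0.50 (without bexarotene replicate 3) for bexarotene, and from -0.60 (without MSU-42011 replicate 2) to -0.034 (without control replicate 2) for MSU-42011.

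Glycam1, a mucin-like glycoprotein of milk that high endothelial venules of lymph nodes also make, was near the limit of detection. The control tumors had 193, 2, 12 and 4 counts, the MSU-42011 tumors 1, 1, 26 and 31, and the bexarotene tumors 9, 2, 2 and 0. The count of 193 in control replicate 1 was 11.5 normalized CPM, and no other tumor was above 1.41. The fitted log2 fold change of -4.37 in bexarotene against control (95% interval -7.79 to -0.95, p = 0.0164, edgeR adjusted p = 0.762, exact permutation p = 0.229) rested on that tumor and was -1.03 without it. In MSU-42011 against control the estimate of -2.08 turned to 1.26 without it. Control replicate 1, which was also high for Wap, had 98.2 normalized CPM of summed skeletal muscle markers, beside 204 in bexarotene replicate 1 and at most 3.41 in the other 10 tumors, and their part in the milk gene levels was not tested. Of the 6 high endothelial venule genes, Chst4, Ccl21a and Ccl19 were at 0 counts in all 12 tumors, Madcam1 and Fut7 had at most 5 and 9 counts, and Chst2 had 50 to 312 counts in every tumor and made up most of the summed level of the list, 3.21 to 11.8 normalized CPM. None of 8 B cell markers passed the filter on low counts.

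The genes of the milk fat globule membrane had small estimated differences. Xdh had between 641 and 1024 normalized CPM in the control tumors (median 826), 475 to 941 in the MSU-42011 tumors (median 775) and 457 to 806 in the bexarotene tumors (median 706). Btn1a1 had 464, 802, 296 and 351 in the control tumors, 260, 522, 536 and 446 in the MSU-42011 tumors and 247, 337, 119 and 637 in the bexarotene tumors. For both, the treated tumors filled most of the control range, with bexarotene replicate 3 the lowest of the 12. Log2 fold changes in MSU-42011 and bexarotene against control were -0.16 (95% interval -0.69 to 0.37) and -0.31 (95% interval -0.84 to 0.22) for Xdh, and -0.12 (95% interval -1.09 to 0.86) and -0.51 (95% interval -1.49 to 0.46) for Btn1a1. In bexarotene, Btn1a1 was at -0.15 without control replicate 2 and at -1.03 without bexarotene replicate 4, the one fit with an unadjusted p under 0.05, and Xdh was at -0.17 without bexarotene replicate 3.

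The spread between tumors of 1 diet group was wide for most of these genes. The within-group SD of log2 normalized CPM was 1.47 for Csn2, 1.46 for Csn1s2b, 1.31 for Glycam1 and 1.28 for Wap, against a median of 0.289 over all genes tested. Only 0.967% of all genes had an SD as large as that of Csn2. Csn1s1 (0.95), Lalba (0.76), Btn1a1 (0.74) and Csn1s2a (0.74) came next. Csn3 (0.40) and Xdh (0.38) were nearest to the ordinary gene, and 31.4% and 33.2% of all genes varied as much. The highest tumor exceeded the lowest by 45.8-fold for Csn2 and 43.4-fold for Wap in normalized CPM, and by 2.24-fold for Xdh.

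Some of the genes varied together. Of the 10 genes, 6 (Csn1s2a, Csn2, Wap, Lalba, Btn1a1 and Xdh) were highest in control replicate 2 and lowest in bexarotene replicate 3. Of the 45 pairs, 40 had a Pearson correlation above 0 across the 12 tumors, with a median r of 0.37, and 8 had r above 0.7. Over all pairs of the 15504 genes tested, the median r was 0.0 and 2.58% had r above 0.7. The highest were Lalba with Btn1a1 (r = 0.90), Csn2 with Wap (r = 0.82), Csn2 with Btn1a1 (r = 0.80) and Csn1s2a with Xdh (r = 0.80). With the 2 tumors farthest from the median of the first-named gene left out, these values were 0.71, 0.65, 0.51 and 0.44. Those of Csn2 with Btn1a1 and of Csn1s2a with Xdh fell most without those tumors. These are descriptions over 12 tumors of 3 diets that share library size and tissue makeup within a tumor. Csn1s1 went with Csn1s2a (r = 0.75) and Xdh (r = 0.69) but had r = 0.14 with Csn2. With the 2 tumors farthest from the Csn1s1 median left out, these were 0.42, 0.22 and 0.11. The highest r of Csn3 with any of the 10 was 0.50, with Csn2.

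**Figure D4:**
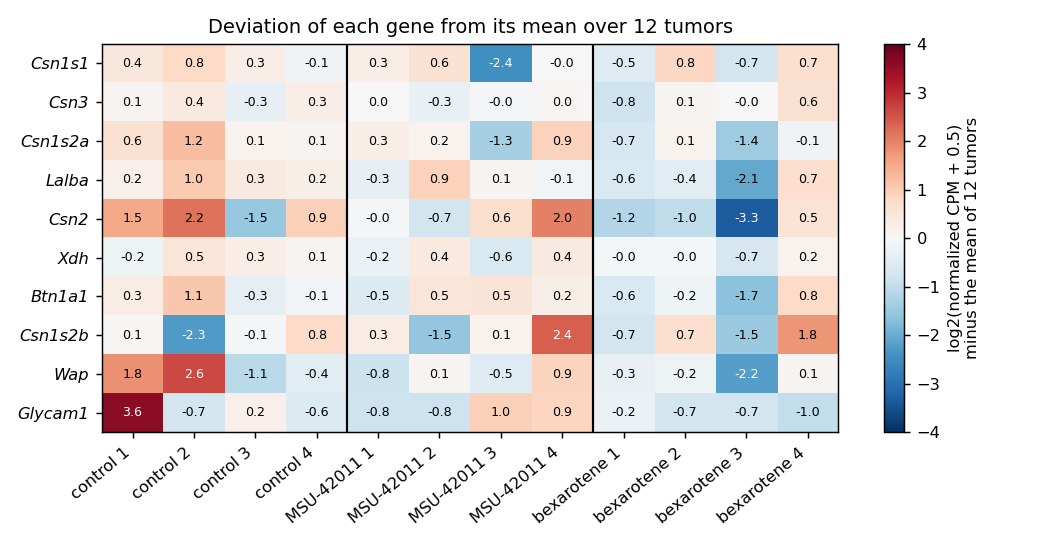
Deviation of each gene in each tumor from its mean over the 12 tumors, on the scale of log2(normalized CPM + 0.5), with red above and blue below the mean and vertical lines between diets. Control replicate 2 is high and bexarotene replicate 3 low for Csn1s2a, Lalba, Csn2, Xdh, Btn1a1 and Wap, while Csn1s1 is lowest in MSU-42011 replicate 3 and Glycam1 stands out in control replicate 1.

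A mean over the 10 genes, each scaled to mean 0 and SD 1 over the 12 tumors, put the tumors in one order. It was 0.68, 0.87, -0.15 and 0.15 in the control tumors, -0.22, 0.066, -0.44 and 0.68 in the MSU-42011 tumors and -0.69, -0.033, -1.45 and 0.54 in the bexarotene tumors. Since each gene is part of this mean, it was set against the mean of the other 9. Csn2, Csn1s2a, Wap and Btn1a1 followed that most closely (r from 0.79 to 0.82), and Csn1s2b (r = 0.18) and Glycam1 (r = 0.14) least. Outside the 10 genes, the tested gene most like the mean over the 12 tumors was Lao1, an L-amino acid oxidase of mouse milk (r = 0.88), followed by Gm27042 (0.84) and Clns1a (0.84). Genes of the lists were spread around this mean. Of 14 genes of prolactin and STAT5 signalling, 8 had r above 0 (median 0.14), from -0.50 for Erbb4 to 0.76 for Elf5, the alveolar transcription factor. Of 21 genes of milk fat synthesis and the globule, 15 did (median 0.13), from -0.51 for Elovl6 to 0.74 for Mfge8. Of 7 other secreted milk proteins, 6 did (median 0.56), and of 6 tested T cell markers 2 did, with Lef1 at r = 0.79. Of 8 luminal epithelial markers 5 had r above 0 (median 0.20). None did of 5 endothelial (median -0.42), 5 fibroblast (median -0.35) and 6 macrophage markers (median -0.26). The genes most like Glycam1 were mostly at a few CPM, some of them pseudogenes by name, led by Rps12-ps3 (r = 0.88). Trim12c (r = 0.84) was the most abundant of the first 10, at a mean of 39.6 normalized CPM.

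Genes upstream of milk protein expression were read from a list. Of 14 genes of prolactin and STAT5 signalling, none passed at an adjusted p under 0.05 in any comparison. At an unadjusted p under 0.05, 2 of the 14 were lower in MSU-42011 against control (Nfib, log2 fold change -0.37, and Cebpb, -0.47), where 0.851% of all genes were, and 1 was lower in bexarotene against control (Nfib, -0.34), where 1.96% were. Socs3, a feedback inhibitor of cytokine signalling, was lower in MSU-42011 than in bexarotene (-2.39, where 3.13% of all genes were lower and 0.819% higher), but its level was 33.8 normalized CPM in bexarotene replicate 1 and at most 9.54 in the other 11 tumors. Without that tumor its log2 difference was -1.13 and did not reach the unadjusted threshold, and Nfib in bexarotene against control just missed it at a similar log2 fold change (-0.31). The receptor and the STAT5 genes had mean normalized CPM of 57.4 ± 11.3 in control, 57.9 ± 11.7 in MSU-42011 and 53.6 ± 6.08 in bexarotene (SD, n = 4 each) for Prlr, and 178 ± 26.2, 217 ± 23.3 and 182 ± 53.1 for Stat5a. Stat5a ran from 194 to 248 in MSU-42011 and from 144 to 204 in control tumors, and was not at an unadjusted p under 0.05 by edgeR. In bexarotene against control the log2 fold change was -0.10 (95% interval -0.47 to 0.27) for Prlr and 0.032 (95% interval -0.41 to 0.47) for Stat5a. The median over the 14 genes was -0.0087 in MSU-42011 and -0.073 in bexarotene against control.

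Among 7 other secreted milk proteins, none passed the adjusted test, and 2 were lower in MSU-42011 at an unadjusted p under 0.05 (Spp1, or osteopontin, log2 fold change -3.13, and the iron-binding Lcn2, -0.85) and 1 in bexarotene (Lcn2, -0.89). The signs were below 0 for 6 of 7 in MSU-42011 and 7 of 7 in bexarotene, with medians of -0.40 and -0.56, against 49.7% and 44.7% of all genes, and the shares of all genes lower at the unadjusted threshold were 0.851% and 1.96%. These calls rested on control tumors. Spp1 had 165, 391, 9.67 and 16.6 normalized CPM in the control tumors and 4.45 to 44.6 in the MSU-42011 tumors, and the groups overlapped. Lcn2 had 10376 in control replicate 2, 2741 to 5027 in the other 3 controls and 2034 to 3526 in the 8 treated tumors. Without control replicate 2 none of the 7 reached an unadjusted p under 0.05 in either comparison with control, and without control replicate 1 only 1 did, in MSU-42011 (120 of 15893 genes were lower at that level in that fit). Without bexarotene replicate 1, Lcn2 in bexarotene no longer reached it (log2 fold change -0.75). Wfdc18, at 9104 ± 1622 normalized CPM in control tumors, had log2 fold changes of -0.22 and -0.097. Of 21 genes of milk fat synthesis and the fat globule, none was called after adjustment. At an unadjusted p under 0.05, Mfge8, a globule membrane protein, was lower in bexarotene (log2 fold change -1.52) and the desaturase Scd2 higher (0.67), where 1.96% of all genes were lower and 4.48% higher, no gene stood at that level in MSU-42011, and the lipid droplet coat Plin2 was higher in MSU-42011 than in bexarotene (0.51), where 0.819% were. Scd2 as 1 of 21 is near the share over all genes. Without bexarotene replicate 1, Plin2 no longer reached that level, Mfge8 did (-1.35), which without control replicate 2 it did not, and 7 of the 21 were higher in bexarotene against control at an unadjusted p under 0.05, against 250 of 15619 genes in that fit. They were the fatty acid synthesis genes Fasn (0.76), Acaca (0.56), Elovl6 (0.67), Scd1 (1.25), Scd2 (0.91), their regulator Srebf1 (0.52) and Lpin1 (0.55), none with an adjusted p under 0.05. In the same fit Scd2 (-0.65) and Elovl6 (-0.64) were lower in MSU-42011 than in bexarotene at the unadjusted threshold, and not after adjustment. With all 12 tumors, 3.13% of all genes were lower at that level in that comparison. None of 13 genes of lactose synthesis and milk transport reached an unadjusted p under 0.05 in any comparison of all 12 tumors, and without control replicate 1, the UDP-galactose transporter Slc35a2 (log2 fold change -0.43) and the hexokinase Hk2 (-0.50) were lower in MSU-42011 and Slc35a2 (-0.52) in bexarotene against control. In that fit 120 and 228 of 15893 genes were lower at the unadjusted threshold.

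Lists of neighbouring states of the gland were read in the same way. Of 7 tested genes of involution, the regression of the gland after weaning, 7 had estimates below 0 in MSU-42011 against control (median -0.72) and 6 in bexarotene (median -0.65), and without control replicate 2 these counts were 4 and 4 (medians -0.069 and -0.044). Cebpd was lower in MSU-42011 at an unadjusted p under 0.05 (log2 fold change -1.05), where 0.851% of all genes were, and was not at that level without control replicate 1 or without control replicate 2. In bexarotene Lif was higher (log2 fold change 1.77) and Igfbp5 lower (-0.74), where 4.48% of all genes were higher and 1.96% lower. In MSU-42011 against bexarotene, Igfbp5 was higher (0.67) and Lif lower (95% interval of the log2 difference -3.60 to -0.41), where 0.819% were higher and 3.13% lower. Lif had 17.2 normalized CPM in bexarotene replicate 1 and at most 5.15 elsewhere, and without that tumor its log2 fold change was 0.55 and that of Igfbp5 -0.63 against control, neither at that level in either comparison. Of 5 genes of alveolar progenitors, none reached that level against control, and Aldh1a3 was lower in MSU-42011 than in bexarotene (log2 fold change -3.10). Its level was 50.2 normalized CPM in bexarotene replicate 1, and without that tumor the log2 difference was -0.50 and did not reach the threshold. None of these passed after adjustment.

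Markers of other cells were read beside these comparisons. Over all genes, 49.7% had estimates below 0 in MSU-42011 against control and 44.7% in bexarotene against control, and in the latter an unadjusted p under 0.05 came with a higher level in 4.48% and a lower one in 1.96%. All 8 luminal epithelial markers had estimates below 0 in MSU-42011 against control (median -0.19) and 7 of 8 in bexarotene (median -0.18). None was at an unadjusted p under 0.05. Without bexarotene replicate 1, log2 fold changes in bexarotene against control were above 0 for Krt8 (0.070), Krt18 (0.011), Cldn3 (0.070) and Cldn4 (0.13). They were below 0 for Epcam (-0.13), Krt19 (-0.16), Cdh1 (-0.31) and Erbb2 (-0.16), and none was at that level. Summed luminal levels were 4936 to 6362 normalized CPM in control, 4603 to 5350 in MSU-42011 and 3064 to 5914 in bexarotene tumors. All 5 fibroblast markers were higher in bexarotene at an unadjusted p under 0.05 (median 4.21), with sums of 47.9 to 268 in control, 100.6 to 231 in MSU-42011 and 84.5 to 7203 in bexarotene tumors, and the top value was bexarotene replicate 1. Without that tumor all 5 were still above 0 (median 0.99), none at an unadjusted p under 0.05. Endothelial markers were above 0 for 5 of 5 in both MSU-42011 (median 0.25) and bexarotene (median 0.64, with Tek at an unadjusted p under 0.05). Without bexarotene replicate 1, 3 of 5 were above 0 and Tek was not at that level (log2 fold change 0.34). Of 6 tested T cell markers, 6 were below 0 in bexarotene (median -0.41, with Cd3g and Lef1 at an unadjusted p under 0.05) and 5 without that tumor (median -0.55). In the latter fit Lef1 reached that level (log2 fold change -1.09) and Cd3g just missed it (-0.96). T cell sums were 13.7 to 21.5 normalized CPM in control and 7.51 to 15.3 in bexarotene tumors. By mean level Lef1 was the largest part of these sums, at 10.9 in control and 5.44 in bexarotene tumors. Of 4 tested myoepithelial markers, Acta2 and Myh11 were higher in bexarotene at an unadjusted p under 0.05 (95% intervals of the log2 fold change 0.17 to 3.49 and 0.29 to 4.12) and were not at that level without that tumor (log2 fold changes 0.33 and 0.46). The other 2, Trp63 (log2 fold change -0.70) and Oxtr (-1.33), had estimates below 0, also without it (-1.22 and -1.32), and were not at that level. All 3 tested skeletal muscle genes were lower in MSU-42011 than in bexarotene at that level, where 3.13% of all genes were, and none was without it. Of 6 macrophage markers, 6 were above 0 in bexarotene against control (median 0.83, with 1 at an unadjusted p under 0.05) and 0 of 6 without that tumor (median -0.23). Macrophage marker sums reached 1282 normalized CPM in that tumor, against 146 to 403 in the others. Without it the log2 fold changes in bexarotene against control were -1.83 for Csn2, -0.93 for Csn1s2a, -2.04 for Wap and -0.71 for Lalba. Bexarotene replicate 3, in which most milk genes were lowest, had 5914 normalized CPM of luminal markers, within the control range. The part of tissue makeup in the differences of milk genes was not tested.

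**Figure D5:**
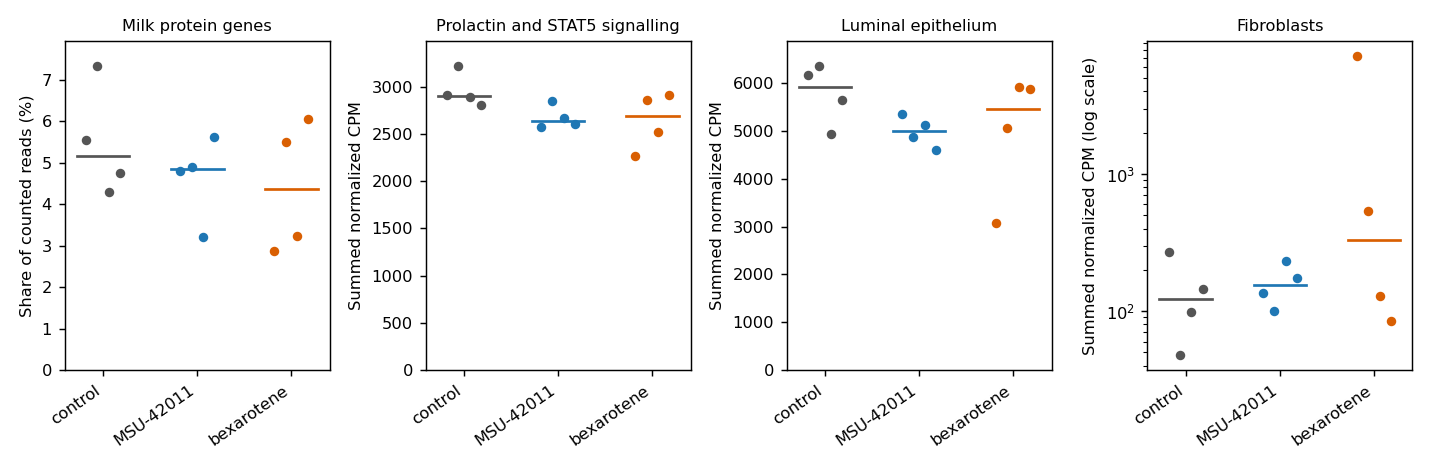
Values per tumor by diet: the share of counted reads taken by the 10 milk genes (%), and the summed normalized CPM of 14 prolactin and STAT5 signalling genes, 8 luminal epithelial markers and 5 fibroblast markers (log scale for the last). Points are tumors and bars are group medians. Milk gene shares run from 2.87% to 7.34% with overlapping groups, and bexarotene replicate 1 lies far from the rest for luminal (3064) and fibroblast (7203) markers.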

How the data were processed

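Poly(A) libraries were made by Novogene from 1 µg of RNA of each of 12 flash-frozen tumor pieces. Deposited by the authors were whole-number read counts per gene, without normalization, and FPKM, which they scaled by gene length and total count. The length behind FPKM was the same in all tumors, within 1%, for 16853 of 16853 genes checked. The submitters' processing notes name STAR 2.6.1d, featureCounts 1.5.0-p3 and DESeq2. Genome build and strand setting are not given in the sources used here, and 53462 of 54409 genes, the 10 milk genes among them, have the coordinates of GENCODE M21 (GRCm38).

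Counts were normalized by TMM and filtered with filterByExpr in edgeR 4.0.16 (R 4.3.3). The 3 diets were fitted in 1 model without covariates, which shares 1 estimate of the spread (biological coefficient of variation 0.338), and p-values were adjusted over the 15504 genes tested. Log2 values of single genes have 0.5 CPM added. Permutation tests used scipy 1.17.1. The fit was tested on simulated counts. No 2 tumors held identical counts, and all 12 tumors were used. A floor of 3 counts was 0.116 to 0.181 CPM.

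The 10 genes and the gene lists were chosen with earlier results of these data known, so counts over a list are descriptions and no list was tested. Outside the 10 genes, the rule for naming took up to 3 genes of a list with the smallest p in a comparison, the genes that define a cell type, and the 10 genes most correlated over the 12 tumors with the mean of the 10 or with Glycam1. Prlr, Stat5a, Wfdc18, Erbb4, Madcam1, Fut7, Odam, Slc35a2, Hk2, Trp63, Oxtr and the milk fat genes Elovl6, Scd1, Srebf1, Lpin1, Fasn and Acaca were named with values in view. Alternatives tried were DESeq2 1.42.0 with and without its Cook's distance filter, its size factors in edgeR, other filters, library sizes without the 10 genes, robust estimation, the replicate number as a block, the 2 groups of a comparison alone, limma 3.58.1 on log2 FPKM with 1 or 0.1 added, and each tumor left out.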

Additional observations from a re-analysis of the deposited data

Results flagged for a closer look

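Each gene was examined within each diet group for a single tumor far from the other 3, by Dixon's ratio of the gap to the whole range, in 33 groups of 4 tumors that also included the share of reads taken by all 10 genes. Chance flags about 1 in 20 such groups, and 2 were found, both in the control group. Glycam1 had 11.5 normalized CPM (193 counts) in control replicate 1, and its gap to the next tumor was 0.952 of the range. Lalba had 4530.45 normalized CPM in control replicate 2, with a gap of 0.871 of the range. The same tumor, control replicate 2, was also the highest of the 12 for 6 of the 10 genes.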

How the results depend on the processing

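None of the 10 genes had an adjusted p under 0.05 in any comparison under any alternative. Over all genes, where edgeR called 0 in each comparison, DESeq2 called 1 in MSU-42011 against control, 6 in bexarotene against control and 4 in MSU-42011 against bexarotene. Without its filter on Cook's distance these were 1, 6 and 23. Leaving out 1 tumor, edgeR called 0 to 1 genes in bexarotene against control. The direction of no milk gene turned under the other alternatives, and turned for these genes when 1 tumor was left out (lowest and highest log2 fold change): in MSU-42011 against control for Glycam1 (-2.62 to 1.26), Csn2 (-1.21 to 0.066), Btn1a1 (-0.29 to 0.25), Xdh (-0.30 to 0.0023) and Csn1s2b (-0.12 to 1.46), in bexarotene against control for Csn1s1 (-0.44 to 0.058), Csn3 (-0.33 to 0.12) and Csn1s2b (-0.19 to 1.05), and in MSU-42011 against bexarotene for Csn1s1 (-0.57 to 0.081), Csn1s2b (-0.74 to 1.23) and Csn3 (-0.32 to 0.13). The cause was not tested.

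Of the 4 milk genes at an unadjusted p under 0.05 in bexarotene against control, limma on FPKM kept Csn2 and also gave Lalba. The 2 groups alone, where Glycam1 did not pass the filter, gave 3. Same-numbered tumors did not deviate together as a set (12 pairs, r from -0.35 to 0.35, own number best in 6 of 24). Pairing by number was thus not seen, though so few pairs cannot exclude a weak one. With the replicate number as a block, 3 of the 4 remained (Csn1s2a, Csn2 and Wap), 0 genes were called after adjustment in bexarotene against control, and Csn2 reached an unadjusted p of 0.0299 in MSU-42011 against bexarotene. Leaving tumors out for the gene lists was added after seeing the data.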
